A study of Mus musculus with 20 samples.

Results

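The 9 genes that encode the subunits of the AMPA and kainate receptors, the channels that carry most fast excitatory transmission in the brain, were followed in the hippocampus of mice infused with human small RNAs (sRNAs). They were taken by gene name from a table of raw counts of 25190 genes, and all 9 were present: 4 AMPA receptor genes (Gria1, Gria2, Gria3 and Gria4) and 5 kainate receptor genes (Grik1, Grik2, Grik3, Grik4 and Grik5). Bulk RNA-seq was made from 20 libraries in 4 groups of 5 mice. All mice were wild-type C57BL/6JOlaHsd males, 4 months old, and all received infusions into the dorsal hippocampus on both sides through cannulas and took part in behavioural tests, with tissue taken 24 hours after the last test. The infusion was artificial cerebrospinal fluid alone in the Vehicle group. In the Control group it carried a pool of sRNAs from the hippocampi of unaffected people, and in the Pool 1 and Pool 2 groups a pool from 1 of 2 cohorts of patients with schizophrenia. All mice of a group received the same pool, so the spread within a group is between mice and not between donors. Expression is given in CPM, the count of a gene scaled to a common library size after TMM normalization.

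AMPA receptors are assemblies of 4 subunits, and their number at the postsynaptic membrane sets the strength of most excitatory synapses, including those of hippocampal pyramidal cells where long-term potentiation is studied. Receptors that contain the Gria2 product (GluA2) pass little calcium. Kainate receptors are slower and act both before and after the synapse. The products of Grik1, Grik2 and Grik3 can form channels by themselves, whereas those of Grik4 and Grik5 bind agonist with high affinity and need a partner of the first kind. In the hippocampus, kainate receptors are best known at the mossy fibre synapse, where granule cells of the dentate gyrus contact CA3 pyramidal cells.

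The members were set side by side in the stretch of coding sequence around the Q/R site, a codon in the pore loop. In Gria2, Grik1 and Grik2 transcripts this codon can be recoded from glutamine to arginine by adenosine-to-inosine editing, which lowers the calcium permeability of the channel. The windows below were read from the GENCODE M21 transcripts (GRCm38), 30 bases each from 5′ to 3′ on the coding strand, with the Q/R codon in capitals.
Gria1: ctgggggccttcatgCAGcaaggatgtgac
Gria2: ttgggtgcctttatgCAGcaaggatgcgat
Gria3: ttgggtgcttttatgCAGcaaggatgtgat
Gria4: ctgggtgcctttatgCAAcaaggatgtgac
Grik1: gttggagctctcatgCAGcaaggatcggag
Grik2: gttggagctctcatgCAGcaaggttctgag
Grik3: atgggctccctgatgCAGcaaggatctgaa
Grik4: gttggaggcttcatgCAGcaaggctccact
Grik5: gtgggtggcttcatgCAGcagggctcggag
The codon was CAG in 8 members and CAA in Gria4, both of which encode glutamine, so the genome gives the unedited form in every member. Gria2 and Gria3 were identical at 28 of the 30 bases, as were Grik1 and Grik2, while Gria4 and Grik4, like Grik3 and Grik4, shared 18. The window did not keep the families apart, since Grik3 shared 23 bases with Gria1 and 22 with Grik1 and with Grik2. The codon of Gria1 was at chr11:57243094-57243096 in exon 11 of 16, that of Gria2 at chr3:80706911-80706913 in exon 11 of 16, that of Gria3 at chrX:41610265-41610267 in exon 11 of 16 and that of Gria4 at chr9:4464137-4464139 in exon 12 of 17. Among the kainate members it was at chr16:87940542-87940544 in exon 13 of 18 for Grik1, chr10:49244329-49244331 in exon 12 of 16 for Grik2, chr4:125691207-125691209 in exon 12 of 16 for Grik3, chr9:42547623-42547625 in exon 14 of 19 for Grik4 and chr7:25022497-25022499 in exon 15 of 20 for Grik5. A count per gene does not separate edited from unedited reads, so editing was not measured. Despite these similarities the members are told apart by 50-base reads: at most 9 of the 15690 distinct 50-base words of Gria2 transcripts were also found in another member, Gria3.

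The libraries held 20588280 to 25543939 counts assigned to genes, with a median of 23343139. The description of the series speaks of CA1 tissue and the sample labels of hippocampal tissue, and which of them was dissected is not settled here. Markers of CA1, CA3 and the dentate gyrus were detected in every library, and no gene of any marker list was at 0 in any group. Tissue content varied between mice. The summed level of 4 CA1 pyramidal markers ranged from 404 to 1071 CPM, that of 4 dentate granule markers from 149 to 503 CPM, that of 8 thalamic markers from 63.0 to 505 CPM and that of 6 choroid plexus markers from 93.4 CPM to 8946 CPM in Vehicle replicate 4. Pool 2 replicate 1 had the highest astrocyte (2904 CPM) and microglia (795 CPM) sums and the lowest pan-neuronal sum (3867 CPM). In bulk tissue, fewer cells of a type and less RNA per cell cannot be told apart. Libraries also differed in base composition: the median log2 deviation of genes of low GC content minus that of genes of high GC content ranged from -0.56 in Pool 1 replicate 5 to 0.34 in Control replicate 3.

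Per kilobase of exon, Gria1 was the most abundant subunit gene of both families. Its mean level was 212 RPKM (CPM per kilobase of the union of exons) over the 20 libraries, 3.57 times that of Gria2 at 59.4 RPKM, and Gria1 was above Gria2 in all 20 libraries. The order continued with Grik5 at 45.9 RPKM, Gria3 at 24.9, Grik4 at 9.48, Gria4 at 8.996, Grik2 at 5.96, Grik3 at 4.44 and Grik1 at 1.57 RPKM. A kainate subunit thus took the third place, above 2 of the AMPA subunits. Neighbours whose ranges over the libraries did not overlap were Gria1 and Gria2, Grik5 and Gria3, Gria3 and Grik4, and Grik3 and Grik1. Gria2 was above Grik5 in 16 of 20 libraries and Grik4 above Gria4 in 14 of 20, so these neighbours were not separated by more than the spread between libraries. The ranges of Gria4 and Grik2 and of Grik2 and Grik3 also overlapped, although the first of each pair was above the second in 20 and 18 libraries.

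**Figure D1:**
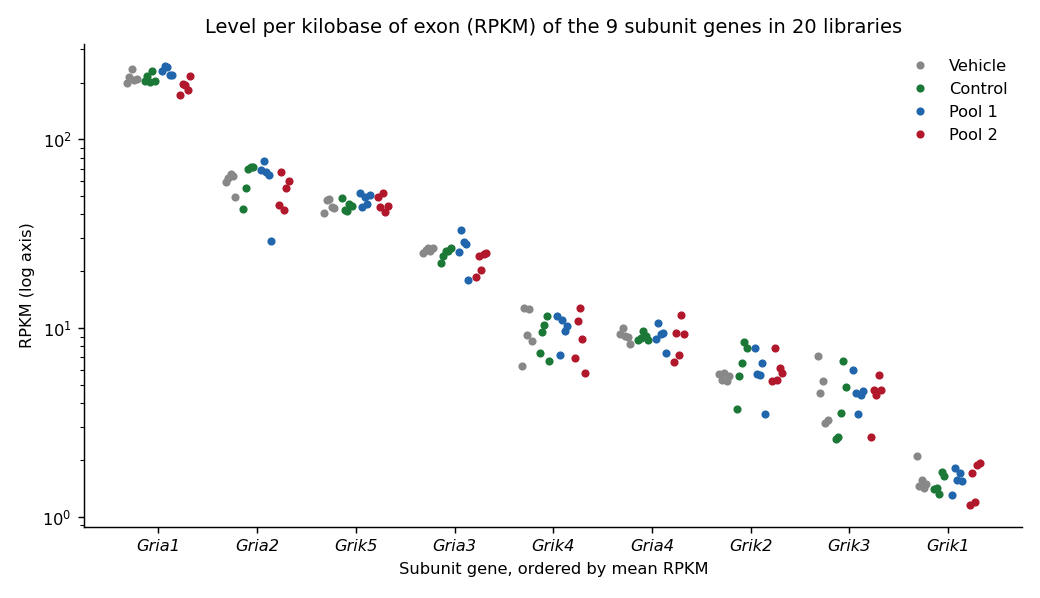
Level of each subunit gene in CPM per kilobase of exon (RPKM, log axis), with the genes ordered by their mean and 1 point per library, coloured by group. Gria1, with a mean of 212 RPKM, lies above all other members in all 20 libraries, and Grik1, at 1.57 RPKM, is the lowest.

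With the longest annotated transcript as the length, the first 4 ranks were the same, but Gria4 (10.4 RPKM) then stood above Grik4 (9.60 RPKM). Gria1 was then at 231 RPKM, 2.59 times Gria2 at 89.0 RPKM, with Gria3 at 47.2 RPKM and Grik1 at 2.88 RPKM. In CPM, without a length, the mean ratio of Gria1 to Gria2 was 1.45. Levels were not corrected for GC content, which was 36.8% in Gria2 and 61.7% in Grik5. Separations were lost with this length: the ranges of Grik5 and Gria3 overlapped, with Grik5 above in 19 of 20 libraries, and so did those of Grik3 and Grik1.

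The composition of each family was read as the share of each gene in the summed RPKM of its family. Gria1 made up 69.6% ± 3.39 (SD, n = 20) of the summed AMPA receptor RPKM, Gria2 19.3% ± 2.91, Gria3 8.15% ± 0.598 and Gria4 2.96% ± 0.361. The group means of the Gria1 share ranged from 68.9% ± 3.44 in Control to 70.9% ± 5.28 in Pool 1 (SD, n = 5), within the spread of either group. In Pool 1 replicate 5 the Gria1 share was 80.2% and the Gria2 share 10.6%, the most extreme of the 20 libraries for both. Among the kainate receptor genes, Grik5 made up 68.2% ± 3.65 of the sum, Grik4 14.0% ± 2.73, Grik2 8.86% ± 1.78, Grik3 6.58% ± 1.87 and Grik1 2.35% ± 0.461. The high-affinity subunits therefore held most of the kainate receptor transcript in every group, with Grik5 group means between 67.4% ± 1.79 in Vehicle and 68.9% ± 2.27 in Pool 1. Shares depend on the length used: with the longest transcript, Gria1 made up 61.4%, Gria2 23.4% and Gria3 12.5% of the AMPA sum, and Grik5 69.8% and Grik1 3.47% of the kainate sum. The summed AMPA level was 4.55 ± 0.507 times the summed kainate level (SD, n = 20), with a group mean of 4.70 ± 0.731 in Pool 1 and 4.17 ± 0.587 in Pool 2.

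The groups were set against each other in 4 comparisons. Pool 1 and Pool 2 against Control set each patient pool against the pool of unaffected people. The others were Pool 2 against Pool 1, and Control against Vehicle, which sets a pool of human sRNAs against none. The study reports that its patients were mainly male, that only the Control pool held both sexes, and that patients differed in antipsychotic exposure. Such donor differences cannot be told apart from diagnosis here. Each comparison shares libraries with at least 1 other, so they are not independent. The threshold of the study was used, under which a gene is called when its log2 fold change is 0.3 or more in either direction and its p, without adjustment, is under 0.05. None of the 9 members was past it in any of the 4 comparisons by edgeR's quasi-likelihood test. Over all 25190 genes, this threshold was passed by 3.48% in Pool 1 against Control, 6.22% in Pool 2 against Control, 6.82% in Pool 2 against Pool 1 and 5.10% in Control against Vehicle. The study also left out genes with a mean normalized count under 10, a filter that was applied here only as an alternative. With it, no member was past the threshold, and the shares were 2.42%, 5.82%, 6.81% and 4.78% of 16644 genes in the same order. Without that filter or a minimum fold change, 0, 0, 2 and 0 of 9 members had an unadjusted p under 0.05 by edgeR. All genes gave 5.22%, 7.70%, 8.52% and 6.64% in the same order. The 2 members were Gria1 and Gria3, both lower in Pool 2 than in Pool 1. No gene of the table reached an adjusted p under 0.05 in any of the 4 comparisons by edgeR. With DESeq2, 1 member did, Gria1 in Pool 2 against Pool 1, among 115 of 20257 genes (0.568%).

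The precision differed widely between members. Of the 36 fold changes, 11 had a 95% interval that lay wholly within 0.3 of 0 on the log2 scale, and these belonged to Gria1, Gria4 and Grik5. For the remaining members the intervals reached past 0.3 in at least 1 direction in every comparison, so that, other than for Gria3 in Pool 2 against Pool 1, they held both 0 and a difference of the size of the threshold. Fold changes had no common sign in the comparisons with Control: 7 of 9 members were above 0 in Pool 1 (median log2 fold change 0.10) and 3 of 9 in Pool 2 (median -0.02). In Pool 2 against Pool 1, 8 of 9 were below 0 (median -0.07), among them all 4 AMPA genes (median -0.21), and in Control against Vehicle 7 of 9 were (median -0.02). Without Vehicle replicate 4 and Pool 2 replicate 1, 5 of 9 were below 0 in Pool 2 against Pool 1 (median -0.06), with Gria4 at 0.057, and 5 of 9 were above 0 in Pool 2 against Control (median 0.02). The median over all genes with a mean count of at least 50 was -0.00797 in Pool 1 against Control, -0.0159 in Pool 2 against Control, -0.00392 in Pool 2 against Pool 1 and 0.00154 in Control against Vehicle.

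**Figure D2:**
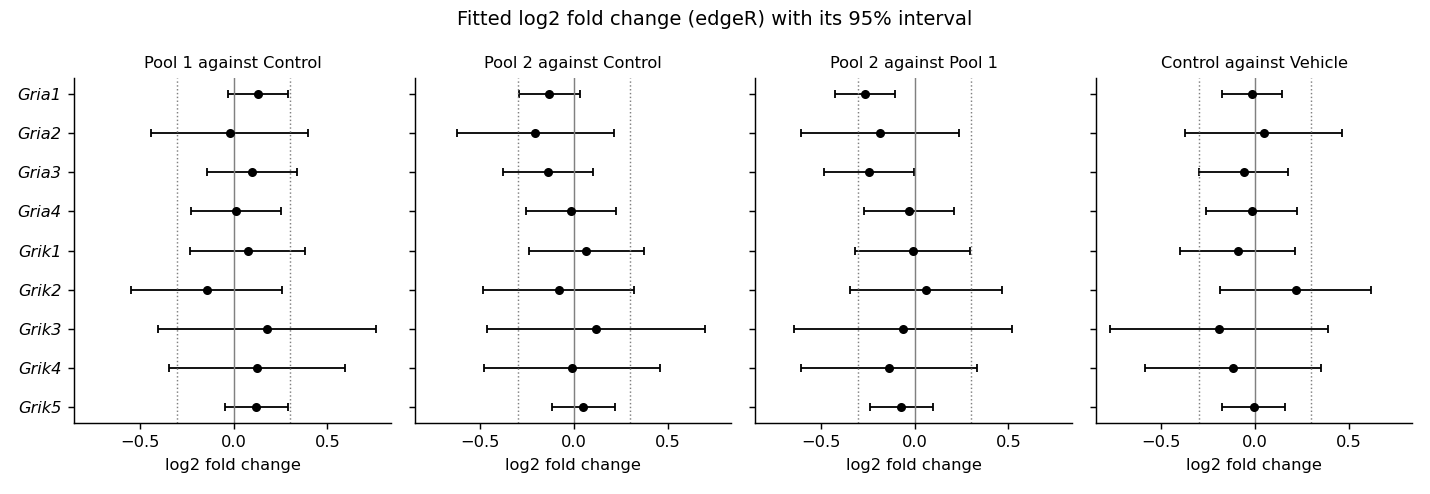
Log2 fold change of each member in the 4 comparisons as fitted by edgeR, with its 95% interval. Dotted lines mark a log2 fold change of 0.3 in either direction. Of 36 intervals, 2 exclude 0, those of Gria1 and Gria3 in Pool 2 against Pool 1, and no estimate lies beyond the dotted lines.

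Gria1 (ENSMUSG00000020524.16, chr11:57011387-57330244, plus strand) encodes GluA1, the subunit whose phosphorylation and delivery to the membrane accompany long-term potentiation. Its level was 1209, 1295, 1429, 1244 and 1265 CPM in Vehicle replicates 1 to 5, and 1229.6, 1307, 1212, 1387 and 1238 CPM in the Control replicates. It was 1396, 1480.1, 1455, 1327 and 1326 CPM in Pool 1 and 1042, 1190.4, 1169, 1109 and 1309 CPM in Pool 2. Every Pool 1 mouse was above every Pool 2 mouse, with Control and Vehicle between and overlapping both. Complete separation in this comparison was found for 1.41% of all genes, and Gria1 was the only member with it. The means were 1397 ± 71.1 CPM in Pool 1 and 1164 ± 99.6 CPM in Pool 2 (SD, n = 5), a log2 fold change of -0.26 (SE 0.08, 95% interval -0.42 to -0.10). The adjusted p was 0.287 with edgeR, with an unadjusted p under 0.05, and the exact two-sided permutation p was 0.00794, the smallest that groups of 5 allow. The size of the difference was below the threshold of 0.3. DESeq2 gave -0.28 with an adjusted p of 0.0231. Over 21 alternatives the log2 fold change ranged from -0.31 to -0.23, with an unadjusted p under 0.05 in all 21 and adjusted p from 0.0231 to 0.706. Without Vehicle replicate 4 and Pool 2 replicate 1 it was -0.23 (adjusted p = 0.691 by edgeR).

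Against Control, Gria1 lay on opposite sides in the patient pools. In Pool 1, 3 of 5 mice were above every Control mouse and the log2 fold change was 0.13 (SE 0.08, adjusted p = 0.917 by edgeR), with an exact permutation p of 0.0317. In Pool 2, 4 of 5 mice were below every Control mouse and the log2 fold change was -0.13 (SE 0.08, adjusted p = 0.734 by edgeR), with an exact permutation p of 0.0873. With DESeq2 the unadjusted p was 0.0497 in Pool 1 and 0.0407 in Pool 2 (adjusted p = 0.841 and 0.582). In these DESeq2 comparisons 1203 and 1778 of 25138 genes tested had an unadjusted p under 0.05, so such a p was common among all genes. Over 21 alternatives, Gria1 was under 0.05 in 1 for Pool 1 and in 4 for Pool 2. With counts adjusted for GC content and length, the Pool 2 value was -0.18 (unadjusted p = 0.0169, adjusted p = 0.460 by edgeR). Control and Vehicle differed by a log2 fold change of -0.02, with a 95% interval of -0.18 to 0.14. Separation of groups was found for 0.861% of all genes in Pool 1 against Control, 1.05% in Pool 2 against Control and 0.607% in Control against Vehicle, and for none of the members. A test of any difference among the 4 groups gave an adjusted p of 0.570 for Gria1 by edgeR. It was the only member with an unadjusted p under 0.05, as 7.86% of genes had, and it was no longer under 0.05 without Pool 2 replicate 1 and Vehicle replicate 4 (adjusted p = 0.924).

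Marker sums were read in Pool 1 and Pool 2 without a test. Of those given here, only the thalamic sum had ranges that did not overlap. All 8 thalamic markers were measured, and their sum was 63.0 to 98.8 CPM in Pool 1 and 99.0 to 505 CPM in Pool 2, without overlap. The sum of 5 astrocyte markers was 1338 to 1564 CPM in Pool 1 and 1529 to 2904 CPM in Pool 2, that of 6 microglia markers 255 to 305 CPM and 256 to 795 CPM, and that of 4 pan-neuronal markers 4083 to 5771 CPM and 3867 to 5075 CPM. The sum of 3 endothelial markers was 97.0 to 130.3 CPM in Pool 1 and 113 to 167 CPM in Pool 2, and that of 7 interneuron markers 786 to 968 CPM and 657 to 851 CPM. The CA1 list had a median of 931 CPM in Pool 1 and 570 CPM in Pool 2, with overlapping ranges of 421 to 1071 CPM and 404 to 885 CPM. Over all 20 libraries Gria1 had a Pearson r of -0.601 with the astrocyte list and -0.606 with the microglia list, and after group means were removed -0.162 and -0.475. Without the 2 libraries farthest from the median of each list these were -0.480 and -0.363. With the pan-neuronal list r was 0.570, 0.580 without the 2 farthest libraries and 0.492 after group means were removed. With the thalamic list r was -0.475, which became -0.253 without the 2 farthest libraries, -0.658 without Vehicle replicate 4 and Pool 2 replicate 1, and 0.0673 after group means were removed. With the endothelial list r was -0.287, and -0.0970 after group means were removed. The part of tissue content in the Gria1 difference was not tested.

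**Figure D3:**
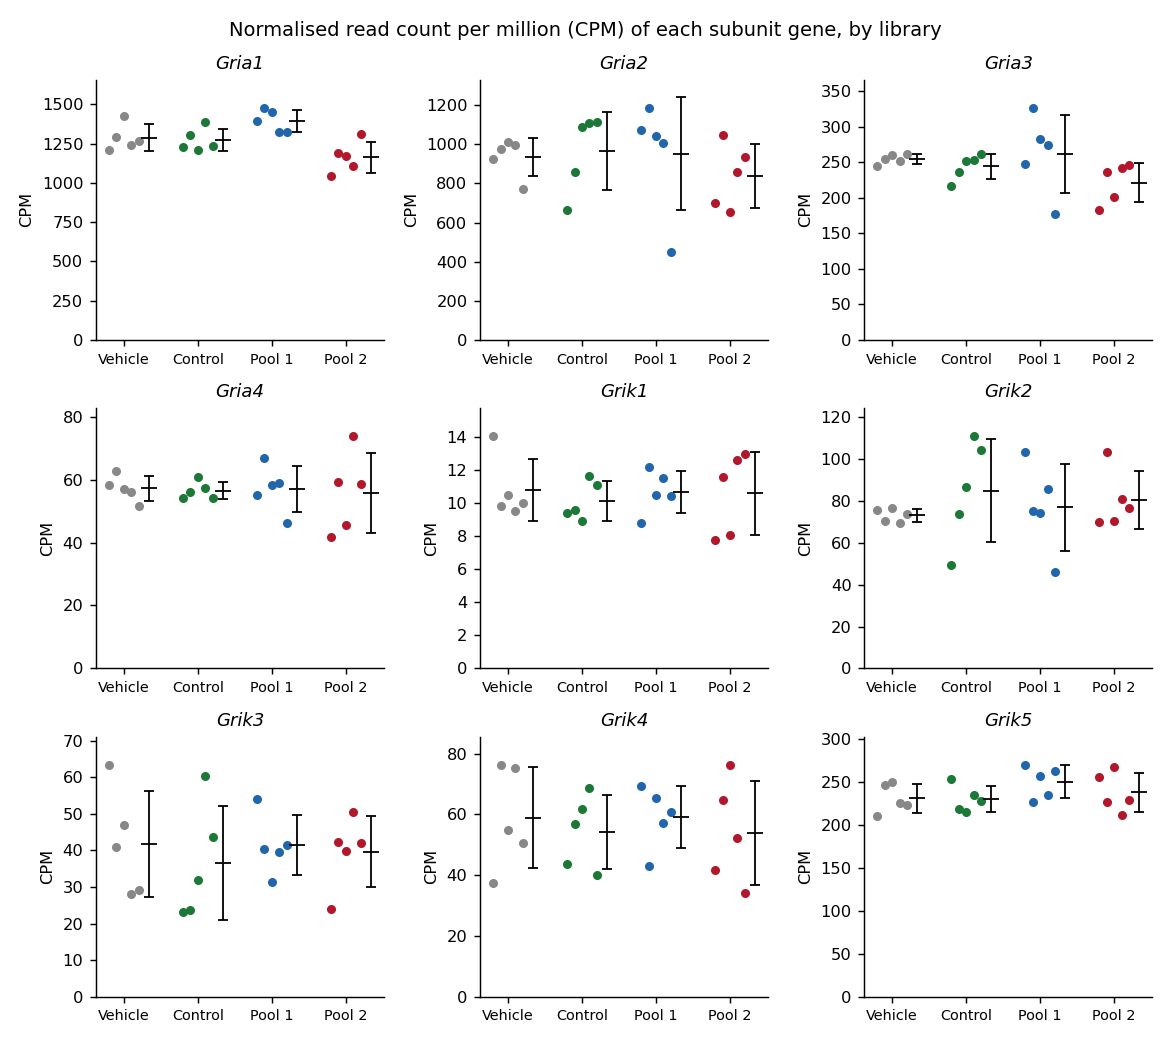
Level of each of the 9 subunit genes in CPM, with 1 point per mouse and, beside each group, its mean and SD (n = 5). For Gria1 the 5 Pool 1 mice (1326 to 1480.1 CPM) lie above the 5 Pool 2 mice (1042 to 1309 CPM), and for every other member the 4 groups overlap. In Gria2, Pool 1 replicate 5 stands at 452 CPM, below the other 4 Pool 1 mice.

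Gria2 (ENSMUSG00000033981.14, chr3:80681450-80802835, minus strand) encodes the calcium-limiting subunit and was the second most abundant member. Vehicle mice had 927, 974, 1013, 997 and 772 CPM, and Control mice 663, 858, 1087, 1111 and 1113 CPM. Pool 1 mice had 1075, 1188, 1040.2, 1007 and 452 CPM, and Pool 2 mice 700.2, 1049, 653, 856 and 933 CPM. All 4 groups overlapped, and the range within Pool 1 was 2.63-fold, wider than any difference between group means. In Pool 2 against Pool 1 the log2 fold change was -0.18 (SE 0.20, adjusted p = 0.892 by edgeR). Without Pool 1 replicate 5 it became -0.36 (adjusted p = 0.363), past the threshold, so this value rests on 1 library. Against Control, Gria2 had log2 fold changes of -0.02 (SE 0.20) in Pool 1 and -0.21 (SE 0.20) in Pool 2. The Pool 2 value was -0.31 without Control replicate 1 and -0.13 with counts adjusted for GC content and length. Its unadjusted p was under 0.05 in 0 of 21 alternatives.

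The spread of Gria2 followed the base composition of the libraries. Its longest transcript has 36.8% GC, at the 2.215 percentile of all genes, and Pearson r between its log2 CPM and the low-GC minus high-GC index was 0.901 over the 20 libraries (0.770 without the 2 libraries farthest from the median of the index). Gria3, at 39.8% GC, and Grik2, at 37.9%, had r of 0.7995 and 0.731, which became 0.689 and 0.419 without those 2 libraries. Gria4, at 44.3% GC, had an r of 0.623 and Grik5, at 61.7%, one of -0.624 (0.587 and -0.559 without them). Gria1, at 48.5% GC, had an r of 0.218. These points share library preparation, and r is a description. Counts were also adjusted for GC content and length, an alternative chosen after the data were seen. This reduced the SD of Gria2 within groups from 0.37 to 0.09 on the log2 scale. That of Gria3 went from 0.20 to 0.11 and that of Grik2 from 0.34 to 0.19, and Gria1 was left at 0.09. Other members moved less, with Grik1 going from 0.24 to 0.23, Grik3 from 0.46 to 0.41 and Grik4 staying at 0.38. The median over genes also fell, from 0.19 to 0.16. With this adjustment, the Gria1 difference between Pool 2 and Pool 1 was -0.28 (adjusted p = 0.169 by edgeR). No member was past the threshold in any comparison, where 3.04%, 5.97%, 6.75% and 4.59% of all genes were past it (Pool 1 against Control, Pool 2 against Control, Pool 2 against Pool 1 and Control against Vehicle).

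Gria3 (ENSMUSG00000001986.16, chrX:41400854-41678601, plus strand) encodes GluA3, the usual partner of GluA2 outside GluA1-containing receptors. It measured 245, 254, 261, 251.9 and 262 CPM in Vehicle and 217, 237, 251.9, 254 and 262 CPM in Control. In Pool 1 it measured 248, 327, 283, 275 and 177 CPM, and in Pool 2 183, 236, 201, 242 and 246 CPM. The lowest and the highest of the 20 values both came from Pool 1, so the groups overlapped. The log2 fold change of Pool 2 against Pool 1 was -0.24 (SE 0.12, adjusted p = 0.583 by edgeR), with an exact permutation p of 0.214. Without Pool 1 replicate 5 it was -0.35 (adjusted p = 0.215), past the threshold, and without Vehicle replicate 4 and Pool 2 replicate 1 it was -0.18 (adjusted p = 0.985). An unadjusted p under 0.05 was obtained in 11 of 21 alternatives. Pool 1 and Pool 2 had log2 fold changes of 0.10 (SE 0.12) and -0.14 (SE 0.12) against Control.

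Gria4 (ENSMUSG00000025892.16, chr9:4417896-4796234, minus strand) encodes GluA4, which in the adult forebrain is best known in parvalbumin interneurons. Its group means were 57.3 ± 3.99 CPM in Vehicle, 56.6 ± 2.73 in Control, 57.1 ± 7.42 in Pool 1 and 55.9 ± 12.7 in Pool 2 (SD, n = 5). The means lay within 1 SD of each other, and the highest (73.9 CPM, replicate 4) and the lowest (41.9 CPM, replicate 1) of the 20 values were both Pool 2 mice. Pool 2 replicate 4 also had the highest thalamic marker sum, 505 CPM, and Pool 2 replicate 1 the highest microglia sum, 795 CPM. Over the 20 libraries Gria4 had r = -0.663 with the microglia list (Spearman's coefficient -0.459), -0.407 without the 2 libraries farthest from the median of that list and -0.713 after group means were removed. The part of tissue content in these values was not tested. All 4 log2 fold changes were between -0.03 and 0.01, and their intervals lay within 0.3 of 0.

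Grik1, Grik2 and Grik3 encode GluK1, GluK2 and GluK3, the subunits that form channels by themselves. Grik1 (ENSMUSG00000022935.16, chr16:87895900-88290265, minus strand) was the least expressed member, at 7.77 to 14.0 CPM, which corresponds to 170 to 333 counts. Its group means were 10.8 ± 1.85, 10.1 ± 1.19, 10.7 ± 1.28 and 10.6 ± 2.49 CPM in Vehicle, Control, Pool 1 and Pool 2 (SD, n = 5). No difference larger than this spread was seen, with log2 fold changes between -0.09 and 0.07.

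Grik2 (ENSMUSG00000056073.16, chr10:49094833-49788766, minus strand) is the main kainate subunit of granule and CA3 cells. Vehicle mice were close together, at 75.7, 70.7, 76.5, 69.5 and 73.6 CPM. Control mice had 49.4, 73.6, 86.9, 111 and 104 CPM, Pool 1 mice 103, 75.2, 74.4, 86.0 and 46.3 CPM, and Pool 2 mice 69.8, 104, 70.5, 81.2 and 76.6 CPM. The range in Control was 2.25-fold and in Vehicle 1.10-fold, and the groups overlapped. Control against Vehicle gave a log2 fold change of 0.22 (SE 0.19, adjusted p = 0.893 by edgeR), the largest of any member in that comparison. Without Control replicate 1 it was 0.36 (adjusted p = 0.936), past the threshold. In Pool 1 and Pool 2 the log2 fold changes against Control were -0.14 (SE 0.19) and -0.08 (SE 0.19). The Pool 1 value was -0.286 without Control replicate 1 and -0.0054 without Pool 1 replicate 5.

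Grik3 (ENSMUSG00000001985.9, chr4:125490700-125714173, plus strand) varied most of all members. It ranged from 23.2 CPM in Control replicate 1 to 63.5 CPM in Vehicle replicate 1, and from 23.2 to 60.2 CPM within Control alone. Group means were 41.7 ± 14.5, 36.6 ± 15.6, 41.4 ± 8.12 and 39.6 ± 9.72 CPM in Vehicle, Control, Pool 1 and Pool 2 (SD, n = 5). The log2 fold changes were 0.18 (SE 0.28) in Pool 1 and 0.12 (SE 0.28) in Pool 2 against Control, with a 95% interval of -0.40 to 0.76 for the first. Leaving out 1 library, the Pool 1 value ranged from 0.054 (without Control replicate 1) to 0.435 (without Control replicate 4).

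Grik4 and Grik5 encode the high-affinity subunits GluK4 and GluK5. Grik4 (ENSMUSG00000032017.14, chr9:42518135-42944493, minus strand), a gene known for its expression in CA3, measured 37.5, 76.1, 54.8, 75.2 and 50.7 CPM in Vehicle and 43.8, 56.8, 61.9, 68.8 and 40.1 CPM in Control. It measured 69.2, 43.0, 65.5, 57.2 and 60.8 CPM in Pool 1 and 41.6, 64.6, 76.4, 52.1 and 34.3 CPM in Pool 2. High and low mice were present in every group, and the largest log2 fold change was -0.14 (SE 0.22, adjusted p = 0.941 by edgeR) in Pool 2 against Pool 1. Over 21 alternatives this value ranged from -0.296 to -0.011. Grik5 (ENSMUSG00000003378.9, chr7:25009849-25072346, minus strand) was steadier, between 209.9 and 269.99 CPM in all 20 libraries. Its group means were 231 ± 17.0 CPM in Vehicle, 229.9 ± 14.9 in Control, 250.1 ± 18.8 in Pool 1 and 238 ± 22.6 in Pool 2 (SD, n = 5). Pool 1 was above Control by a log2 fold change of 0.12 (SE 0.08, adjusted p = 0.920 by edgeR, exact permutation p = 0.0952), a sign that turned to -0.05 with the GC and length correction.

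The members differed in how steady they were between mice of a group. The SD within groups on the log2 scale was 0.09 for Gria1 and 0.11 for Grik5, at the 5.29 and 12.01 percentiles of 13364 genes with a mean count of at least 50, whose median was 0.19. It was 0.37 for Gria2, 0.38 for Grik4 and 0.46 for Grik3, at the 88.9, 90.0 and 94.3 percentiles. Gria3, Gria4, Grik1 and Grik2 lay between, at 0.20, 0.20, 0.24 and 0.34. This order depended on the base composition of the libraries. With counts adjusted for GC content and length, Gria2 was at 0.09, as was Gria1, where the median over genes was 0.16. Grik4 and Grik3 were then still at 0.38 and 0.41. Of the 36 pairs of members, 5 had a Pearson r of at least 0.6 over the 20 libraries: Gria2 with Gria3 (0.840), Gria2 with Grik2 (0.787), Gria3 with Gria4 (0.725), Gria2 with Gria4 (0.639) and Gria4 with Grik1 (0.636). Without Vehicle replicate 4 and Pool 2 replicate 1, Gria4 with Grik1 was at 0.530 and the other 4 pairs between 0.626 and 0.848. Spearman's coefficient was lower for Gria3 with Gria4 (0.398) and Gria2 with Gria4 (0.483). The lowest Pearson r over all 20 libraries was -0.583, between Gria4 and Grik5. Without Vehicle replicate 4 and Pool 2 replicate 1 the lowest was -0.620, between Grik1 and Grik4. After group means were removed it was -0.671, between Grik1 and Grik5. Of these members, Gria2, Gria3, Gria4 and Grik2 had r of 0.901, 0.7995, 0.623 and 0.731 with the low-GC minus high-GC index. Grik5 had -0.624 and Grik1 0.275. The part of base composition in the relations between members was not tested.

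The strongest relations with markers of hippocampal subfields were those of Grik2 with the dentate gyrus and of Grik4 with CA3. Each member was set against the mean log2 CPM of 14 marker lists, and 11 of the 126 relations had an absolute r of at least 0.6. Grik4 had r = 0.830 (Spearman's coefficient 0.818) with the 4 CA3 markers and 0.0668 with the 4 dentate granule markers. Grik2 had r = 0.864 (Spearman's coefficient 0.785) with the dentate granule list, -0.657 with the CA1 list, -0.654 with the interneuron list (Spearman's coefficient -0.398) and -0.0805 with the CA3 list. Grik3 had r = 0.627 (Spearman's coefficient 0.708) with the dentate granule list, which became 0.486 when the 2 libraries farthest from the median of that list were left out. It was related to other lists to a like degree, with r = 0.572 for the neocortical list (0.642 without the 2 farthest libraries) and, after group means were removed, 0.664 for the thalamic list. Without Vehicle replicate 4 and Pool 2 replicate 1, Grik3 had r = -0.655 with the CA2 list and -0.683 with the interneuron list. After group means were removed, the values for Grik4, Grik2 and Grik3 were 0.852, 0.878 and 0.689, so the relations were present within groups. Gria2 and Gria3 had r of 0.788 and 0.773 with the 4 pan-neuronal markers, and 0.654 and 0.526 without the 2 libraries farthest from the median of that list. Grik1 had r = 0.611 with 4 neocortical markers, -0.509 with the CA3 list (-0.688 without Vehicle replicate 4 and Pool 2 replicate 1) and 0.205 with the dentate granule list, and Grik5 had 0.0809 with the CA3 list and -0.159 with the dentate granule list. The points share the library, its depth and its base composition.

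**Figure D4:**
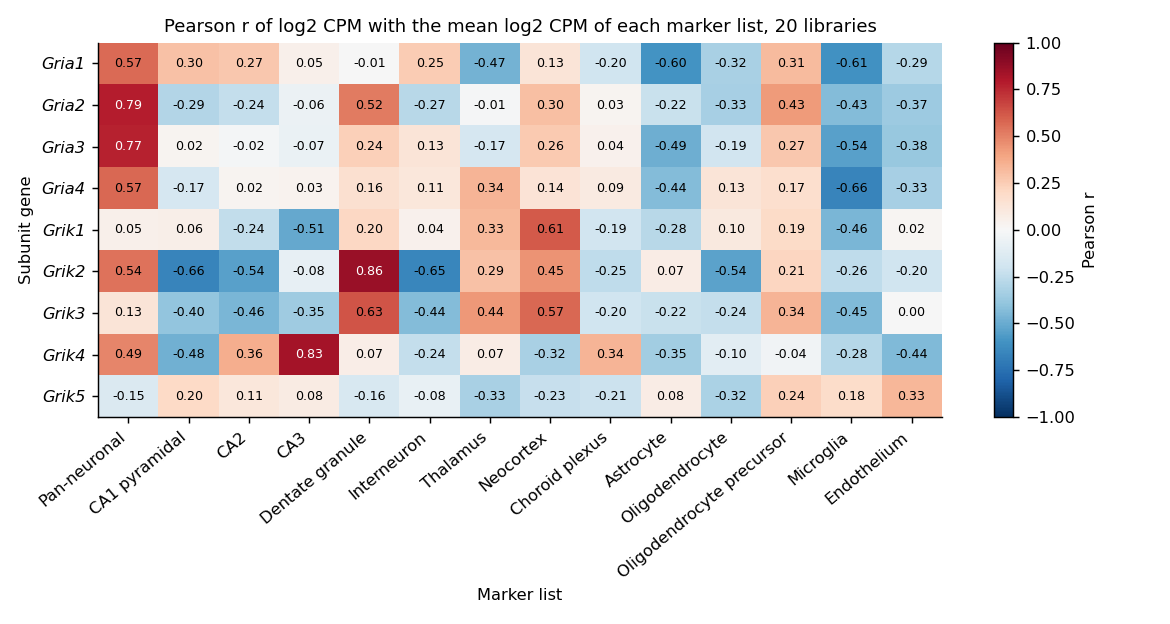
Pearson r between the log2 CPM of each member (lines) and the mean log2 CPM of each of 14 marker lists (columns) over 20 libraries. The highest values are those of Grik2 with dentate granule markers (0.864) and of Grik4 with CA3 markers (0.830), and Gria2 and Gria3 are highest with the pan-neuronal list.

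The CA3 sum was 547 to 896 CPM in Vehicle, 592 to 920.3 CPM in Control, 678 to 869 CPM in Pool 1 and 598 to 774 CPM in Pool 2. The dentate granule sum was 216 to 319, 178 to 460.4, 149 to 503 and 252.2 to 411 CPM in the same order, and the lowest dentate value, that of Pool 1 replicate 5, belonged to the library with the lowest Grik2 (46.3 CPM). All 4 genes of either list were measured, and the part of subfield content in the spread of Grik2, Grik3 and Grik4 was not tested.

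**Figure D5:**
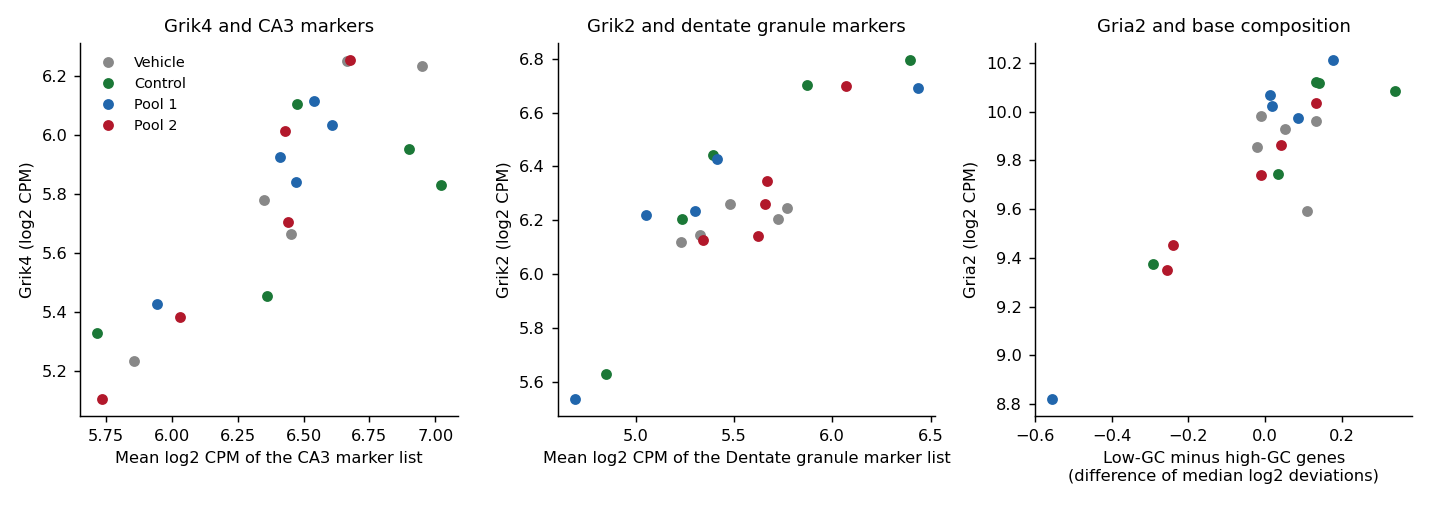
Each point is 1 library, coloured by group. Grik4 (log2 CPM) against the mean log2 CPM of 4 CA3 markers (r = 0.830), Grik2 against that of 4 dentate granule markers (r = 0.864), and Gria2 against the low-GC minus high-GC index of the library (r = 0.901), where Pool 1 replicate 5 is the lowest point on both axes. Libraries of different groups are mixed along each relation, and the 5 Vehicle mice lie close together in Grik2.

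Among 13364 genes, the 3 of most similar pattern to each member over the 20 libraries were as follows. For Gria1 they were Kalrn, an exchange factor of dendritic spines (r = 0.847), Ccdc149 (0.831) and Herc3 (0.831). For Gria2 they were the chromatin remodeler Atrx (0.982), the mRNA export factor Thoc2 (0.976) and Ecpas (0.974), with GC contents of 39.5%, 37.5% and 44.1%. For Gria3 they were Kcnd2, which encodes the A-type potassium channel Kv4.2 (0.942), the ubiquitin ligase component Fbxw7 (0.939) and Ppm1k (0.917). For Gria4 they were Olfm3 (0.874), Rbms3 (0.857) and the sodium channel gene Scn1a (0.847).

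The kainate members had other neighbours. Grik1 was closest to Cbln2, a secreted synaptic organizer (0.826), Cntn4 (0.805) and Vwc2l (0.790). Grik2 was closest to Ccdc85a (0.965), the diacylglycerol kinase gene Dgkh (0.951) and the transcription factor gene Rfx3 (0.944). Grik3 was closest to Chst15 (0.851), St6galnac3 (0.838) and the NMDA receptor gene Grin3a (0.833). Grik4 was closest to the clathrin adaptor gene Ap2a2 (0.941), Ccbe1 (0.925) and the synapsin gene Syn2 (0.906). Grik5 was closest to the calcium channel gene Cacnb3 (0.900), Mast3 (0.843) and Nsmf (0.827), all 3 of high GC content (59.3% to 61.3%). Without Vehicle replicate 4 and Pool 2 replicate 1 these r values were between 0.766 and 0.984.

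Genes whose products act with these receptors were read from 7 lists of 43 genes, all measured: 14 auxiliary subunits of AMPA receptors, 2 of kainate receptors, 5 biogenesis factors, 12 scaffold and trafficking genes, 5 secreted organizers, 3 RNA editing enzymes and the delta receptors. None was past the threshold in Pool 1 against Control, Pool 2 against Control or Control against Vehicle. In Pool 2 against Pool 1, 2 of 43 (4.65%) were, both lower in Pool 2, where 6.82% of all genes passed in either direction. The median log2 fold change over the 43 genes was 0.06 in Pool 1 against Control and -0.01 in Pool 2 against Control.

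Shisa6 encodes an auxiliary subunit that holds AMPA receptors at the synapse. It measured 251, 258, 289, 238 and 211 CPM in Pool 1 and 172, 223, 223, 185 and 187 CPM in Pool 2, where only Pool 1 replicate 5 lay within the Pool 2 range. The log2 fold change was -0.33 (SE 0.13, adjusted p = 0.474 by edgeR), and without Vehicle replicate 4 and Pool 2 replicate 1 it was -0.29, no longer past the threshold. The call was also lost without Pool 1 replicate 3 (-0.27) and without Pool 2 replicate 1 alone (-0.29).

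Akap5 encodes the anchoring protein that holds kinases and phosphatases beside AMPA receptors. It measured 79.1, 105, 105, 93.4 and 67.3 CPM in Pool 1 and 56.5, 70.4, 58.1, 68.6 and 86.7 CPM in Pool 2, with overlapping groups. The log2 fold change was -0.40 (SE 0.12, adjusted p = 0.325 by edgeR), and over 21 alternatives it ranged from -0.50 to -0.34 with an unadjusted p under 0.05 in each. It was past the threshold in all of them.

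Of the lists with no member past the threshold in Pool 2 against Pool 1, the 2 genes of smallest p were Frrs1l (log2 fold change -0.23, SE 0.14) and Cpt1c (-0.11, SE 0.07) for biogenesis, C1ql2 (0.64, SE 0.34) and Nptx2 (-0.26, SE 0.21) for secreted organizers, and Adarb1 (0.16, SE 0.16) and Adar (-0.07, SE 0.09) for editing enzymes, with adjusted p-values of 0.639 or more by edgeR. Adarb1, the enzyme that edits the Q/R site of Gria2, had group means of 195 ± 25.3 CPM in Pool 1 and 218 ± 55.3 CPM in Pool 2 (SD, n = 5). The kainate auxiliary genes Neto1 and Neto2 had log2 fold changes of -0.22 (SE 0.25) and -0.09 (SE 0.17). The delta receptor gene Grid1 had -0.25 (SE 0.08, adjusted p = 0.353).

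Against Control, the partner gene with the smallest p was the same in both patient pools. Abhd6, a lipase that limits the surface delivery of AMPA receptors, had means of 77.4 ± 11.1 CPM in Control, 65.2 ± 4.68 in Pool 1 and 63.4 ± 3.59 in Pool 2 (SD, n = 5), and 67.4 ± 6.55 in Vehicle. The log2 fold change was -0.25 (adjusted p = 0.917) in Pool 1 and -0.29 (adjusted p = 0.479) in Pool 2 by edgeR, both against the same 5 Control libraries, and 0.20 (adjusted p = 0.739) in Control against Vehicle. In Pool 1 against Control, the AMPA auxiliary genes of smallest p were Cacng8 (log2 fold change 0.23, SE 0.10) and Shisa7 (0.22, SE 0.11), and the scaffold genes were Dlg4, which encodes PSD-95 (0.19, SE 0.09), and Epb41l1 (0.17, SE 0.09), each with an adjusted p of 0.917 by edgeR. Grid1 had 0.18 (SE 0.08) and the biogenesis gene Cpt1c 0.09 (SE 0.07). The organizers Nptx2 and C1ql2 had 0.23 (SE 0.21) and -0.33 (SE 0.34), the editing genes Adar and Adarb2 0.06 (SE 0.09) and 0.09 (SE 0.28), and Neto1 and Neto2 0.13 (SE 0.25) and -0.11 (SE 0.17).

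In Pool 2 against Control, the AMPA auxiliary genes of smallest p were Cacng4 (log2 fold change 0.20, SE 0.08, adjusted p = 0.569 by edgeR) and Syndig1 (-0.21, SE 0.12). The biogenesis gene Frrs1l had -0.21 (SE 0.14), the scaffold genes Akap5 and Grip2 -0.20 (SE 0.12) and 0.12 (SE 0.10), and the organizers C1ql2 and Nptxr 0.31 (SE 0.33) and 0.03 (SE 0.14). The editing genes Adarb1 and Adarb2 had 0.19 (SE 0.16) and 0.25 (SE 0.28), Neto1 and Neto2 -0.09 (SE 0.25) and -0.20 (SE 0.17), and Grid1 -0.07 (SE 0.08).

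In Control against Vehicle, where no partner gene was past the threshold either, the AMPA auxiliary genes of smallest p were Syndig1 (log2 fold change 0.26, SE 0.12, adjusted p = 0.739 by edgeR) and Cacng4 (-0.13, SE 0.08). The biogenesis gene Porcn had 0.05 (SE 0.08), the scaffold and trafficking genes Pick1 and Gripap1 -0.20 (SE 0.10) and -0.12 (SE 0.07), and the organizers C1ql3 and C1ql2 0.33 (SE 0.27) and 0.37 (SE 0.34). The editing genes Adar and Adarb2 had -0.06 (SE 0.09) and 0.13 (SE 0.28), Neto1 and Neto2 -0.02 (SE 0.25) and -0.11 (SE 0.17), and Grid1 -0.05 (SE 0.08).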

How the data were processed

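Raw counts per gene were deposited by the authors, who sequenced polyadenylated RNA of the mouse hippocampus as stranded 50-base single-end reads, checked them with FastQC 0.11.5 and aligned them to GRCm38 (mm10 in the submitters' processing notes) with STAR, counting against GENCODE M20. Groups came from the sample labels. The quasi-likelihood test of edgeR 4.0.16 (R 4.3.3, robust estimates of the spread) was applied to the counts after TMM scaling, in 1 fit of all 20 libraries, with Benjamini-Hochberg adjustment over 25190 genes. Exact two-sided permutation tests used log2 CPM with a prior count of 2. Lengths, GC content and positions came from GENCODE M21, which covered 99.8% of genes. The fit was tested on simulated data.

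The members and lists were chosen with earlier results of these data known. Named partner genes were those past the threshold and, where a list had none, the 2 of smallest p, other than 1 gene not reported here. Alternatives were DESeq2 1.42.0, other scalings and filters, the 2 groups only, a replicate block, 18 libraries, leaving out each library, and longest transcripts as lengths. The labels do not say more of the replicates than that they are separate samples, and p-values measure the spread between them. Behaviour, histology and the human sRNA data were not used here.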

Additional observations from a re-analysis of the deposited data

Results flagged for a closer look

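In 36 groups of 5 (9 members in 4 groups), Dixon's test found 2 values far from the rest of their group, where chance gives about 1 in 20. Gria2 was 452 CPM in Pool 1 replicate 5, below the other 4 mice of that group. This library also had the lowest low-GC minus high-GC index (-0.56) and the lowest dentate granule marker sum (149 CPM), and their part in the value was not tested. Grik1 was 14.0 CPM in Vehicle replicate 1, above the other 4 Vehicle mice.

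The fold changes against the shared Control libraries differed between the patient pools for 2 members, by the contrast of Pool 2 with Pool 1 at an unadjusted p under 0.05. In this contrast, 8.52% of all genes had such a p by edgeR. For Gria1 the log2 fold change in Pool 2 minus that in Pool 1 was -0.26, and for Gria3 it was -0.24. Over 21 alternatives the unadjusted p was under 0.05 in 21 for Gria1 and in 11 for Gria3. Neither member passed adjustment over all genes with edgeR.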

How the results depend on the processing

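Of 756 alternative values of the 36 member fold changes, 684 kept direction and side of the threshold, 5 passed the threshold and 67 changed sign. The largest absolute log2 fold change among those that changed sign was 0.19. The cause of these changes was not tested. Counts of members past the threshold in Pool 2 against Pool 1 became 2 with no minimum fold change (8.52% of all genes) and 1 (Gria1, -0.30) in a fit of these 2 groups only (6.12% of all genes). For partner genes, no minimum fold change gave 5 of 43 in Pool 1 against Control (5.22% of all genes), 2 in Pool 2 against Control (7.70%), 6 in Pool 2 against Pool 1 (8.52%) and 2 in Control against Vehicle (6.64%). Fits of the 2 groups only gave 1 in Pool 2 against Control (4.95% of all genes) and 4 in Pool 2 against Pool 1 (6.12%). The filterByExpr filter gave 1 in Pool 2 against Control (5.55%) and 3 in Pool 2 against Pool 1 (6.67%). In the latter comparison DESeq2 (5.69%), DESeq2 size factors in edgeR (6.70%), upper-quartile scaling (6.64%) and the default estimate of the spread (6.99%) also gave 3 each. With 18 libraries (without Vehicle replicate 4 and Pool 2 replicate 1) there was 1 in Pool 2 against Pool 1 (4.95%) and 1 in Control against Vehicle (5.07%). Members with any difference among the 4 groups numbered 0 with 18 libraries (5.69% of all genes).

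Leaving out 1 library at a time, members past the threshold ranged from 0 to 1 in Control against Vehicle and 0 to 2 in Pool 2 against Pool 1 (Gria2 and Gria3 without Pool 1 replicate 5, Gria1 at -0.31 without Pool 2 replicate 5), and were 0 throughout in the comparisons of either pool with Control. Partner genes ranged from 0 to 1 in Control against Vehicle and in Pool 1 against Control, 0 to 2 in Pool 2 against Control and 1 to 4 in Pool 2 against Pool 1, where the share of all genes past the threshold ranged over 3.79% to 7.11%, 2.85% to 4.96%, 4.48% to 7.22% and 4.72% to 8.21% in the same order. Members with any difference ranged from 0 to 2 (6.37% to 9.84% of all genes), and were 0 without Pool 1 replicate 2, Pool 1 replicate 3, Pool 2 replicate 1 or Pool 2 replicate 4.

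Signs changed as follows. With filterByExpr, Control against Vehicle gave 0.00512 for Gria1, 0.00521 for Gria4 and 0.015 for Grik5, and with those 2 groups only 0.00654 for Grik5. With 18 libraries, Pool 2 against Control gave 0.071 for Gria4 and 0.067 for Grik4, and Pool 2 against Pool 1 gave 0.057 for Gria4, 0.081 for Grik1 and 0.073 for Grik3. With the GC and length correction, Grik5 was -0.045 in Pool 1 and -0.13 in Pool 2 against Control and 0.092 in Control against Vehicle, Grik2 was 0.00949 in Pool 2 against Control, and Gria1 and Gria4 were 0.043 and 0.016 in Control against Vehicle. With the replicate block added, these were -0.046, -0.13, 0.093, 0.014, 0.046 and 0.017.

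Leaving out 1 library at a time, the ranges that crossed 0 in Control against Vehicle were -0.040 to 0.024 for Gria1, -0.017 to 0.15 for Gria2, -0.052 to 0.018 for Gria4, -0.14 to 0.031 for Grik1, -0.44 to 0.023 for Grik3 and -0.042 to 0.024 for Grik5. In Pool 1 against Control they were -0.13 to 0.16 for Gria2 and -0.049 to 0.080 for Gria4. In Pool 2 against Control they were -0.14 to 0.071 for Gria4, -0.018 to 0.16 for Grik1, -0.23 to 0.022 for Grik2, -0.00879 to 0.36 for Grik3 and -0.17 to 0.11 for Grik4. In Pool 2 against Pool 1 they were -0.15 to 0.057 for Gria4, -0.093 to 0.081 for Grik1, -0.076 to 0.19 for Grik2 and -0.16 to 0.073 for Grik3.

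Samples with the same replicate number correlated between -0.427 and 0.334. Between Control and Pool 2, 4 of 5 such pairs were over 0.1, between Vehicle and Pool 1 3 of 5, and in no pair of groups were all 5, so the numbers were not taken to pair the samples. With the replicate block, members past the threshold were 0 in all 4 comparisons, and genes past it numbered 759, 1410, 1552 and 1053 where the fit without the block gave 876, 1566, 1718 and 1285 (Pool 1 and Pool 2 against Control, Pool 2 against Pool 1, Control against Vehicle). Depth limits Grik1 most, with 170 to 333 counts per library.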
